A study of Mus musculus with 16 samples.

Results

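A set of 10 p53 target genes was followed in mouse liver through a study of alcohol feeding and loss of the mitochondrial fission protein DRP1. They were Cdkn1a, Mdm2, Ccng1, Bax, Btg2, Phlda3, Eda2r, Zmat3, Trp53inp1 and Bbc3, chosen by symbol as widely used p53 targets with roles in growth arrest, feedback or cell death. The deposited table held 1 row for each of these 10 genes among 27288 genes. All 10 lay among the 13256 genes tested, those with a mean of at least 10 normalised reads over the 16 libraries. Eda2r passed that floor through the libraries labelled knockout, because its means in the wild-type groups were 8.20 and 7.72 normalised reads, so its difference between genotypes bears on its being tested at all.

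Livers of C57BL/6 mice aged 8 to 10 weeks were sequenced in 4 groups of 4 libraries: wild type on the control treatment, wild type on ethanol, L-Drp1 knockout on the control treatment and L-Drp1 knockout on ethanol. The knockout removes DRP1, encoded by Dnm1l, in liver only, and the wild-type mice were its paired controls. Ethanol was given by the Gao-Binge model, a period of ethanol diet that ends in a single large dose. The sources used here do not give the Cre driver, the sex of the mice or the time from the last dose to tissue collection. Nor do they say that each library came from its own mouse, so the spread behind every p-value may be partly technical.

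p53 is a transcription factor that accumulates when DNA damage, nutrient stress or other insults release it from MDM2, the ubiquitin ligase that marks it for destruction. It binds a site built from a pair of like decamers, and its targets include the cell-cycle brake p21 (Cdkn1a), genes of cell death, and Mdm2 itself, which closes a negative feedback loop. Several of these genes, Cdkn1a and Btg2 above all, also answer to signals that do not pass through p53, and in liver p21 is known for holding hepatocytes out of the cell cycle after injury.

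The upstream sequence shows which of these genes carry a recognisable p53 site close to a start, so 5 of the windows are printed. RefSeq promoter entries on GRCm38.p6 matched 8 of the 10 genes in 11 entries, and the table used had none for Zmat3 and Trp53inp1. Each window is the 250 bases before an annotated transcription start, given 5′ to 3′ on the gene's strand, and capitals mark matches to the p53 decamer or to a tandem of 2 (both searched by name on both strands) or, in Btg2 alone, the cyclic AMP response element TGACGTCA.
Cdkn1a, upstream start, chr17:29090729-29090978, plus strand: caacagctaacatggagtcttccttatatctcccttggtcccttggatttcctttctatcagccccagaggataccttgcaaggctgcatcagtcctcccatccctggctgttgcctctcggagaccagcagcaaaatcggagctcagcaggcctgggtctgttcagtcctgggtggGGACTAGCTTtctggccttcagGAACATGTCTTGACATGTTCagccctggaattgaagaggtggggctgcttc
Cdkn1a, downstream start, chr17:29093519-29093768, plus strand: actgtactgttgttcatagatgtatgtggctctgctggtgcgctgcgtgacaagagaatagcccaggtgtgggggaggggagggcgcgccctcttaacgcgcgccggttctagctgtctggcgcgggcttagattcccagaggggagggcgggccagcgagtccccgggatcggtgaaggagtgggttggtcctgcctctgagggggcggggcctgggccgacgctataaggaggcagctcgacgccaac
Mdm2, chr10:117710759-117711008, minus strand: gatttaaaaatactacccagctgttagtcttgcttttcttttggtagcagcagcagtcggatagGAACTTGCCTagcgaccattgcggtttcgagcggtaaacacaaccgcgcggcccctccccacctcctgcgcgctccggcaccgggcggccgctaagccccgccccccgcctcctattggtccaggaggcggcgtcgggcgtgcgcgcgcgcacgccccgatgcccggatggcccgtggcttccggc
Btg2, chr1:134079156-134079405, minus strand: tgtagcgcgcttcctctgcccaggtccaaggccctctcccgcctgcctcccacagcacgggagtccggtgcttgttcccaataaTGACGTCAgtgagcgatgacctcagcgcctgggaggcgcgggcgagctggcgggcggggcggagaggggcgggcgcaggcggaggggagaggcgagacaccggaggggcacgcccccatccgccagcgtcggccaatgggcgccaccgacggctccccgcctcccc
Eda2r, chrX:97377210-97377459, minus strand: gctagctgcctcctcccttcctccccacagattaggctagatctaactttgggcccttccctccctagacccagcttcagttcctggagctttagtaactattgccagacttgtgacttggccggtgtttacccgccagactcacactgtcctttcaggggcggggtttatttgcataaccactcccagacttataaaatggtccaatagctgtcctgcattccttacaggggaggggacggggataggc
At least 1 decamer stood in a window of 4 of the 8 genes with entries, namely Cdkn1a (2 decamers, upstream start), Mdm2, Ccng1 and Bax. Counted by entry this was 4 of 11, against 7.13% of all 32851 promoter entries. A full site, 2 decamers in tandem over 20 bases with at most 1 mismatch, stood in the windows of Cdkn1a and Ccng1 and in 25 entries of the whole table (0.0761%). In Cdkn1a its first base lay 51 bases before the upstream start and 2841 bases before the downstream start, whose own window held no decamer. The 30 bases of Ccng1 that begin with its tandem site, 195 bases before its start, are given because Ccng1, unlike Cdkn1a, passed no test (a choice made after its values were seen).
Ccng1, chr11:40755452-40755481, minus strand: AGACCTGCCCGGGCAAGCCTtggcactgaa
The GC box GGGCGG, on either strand, stood in a window of 7 of the 8 genes and in 32.7% of all entries. These 2 shares are not alike, because Cdkn1a and Bbc3 have more than 1 window. TGACGTCA stood in the Btg2 window and in 1.55% of all entries. These matches describe letters in short windows and do not show binding.

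Library depth ran from 11425136 to 13864862 reads assigned to genes. Values are normalised reads, that is reads divided by 1 factor per library, so they compare libraries and not genes of different length. Differences are given as log2 fold changes of the value plus 1, with standard errors and Benjamini-Hochberg adjusted p-values from limma fitted to all 13256 genes, and a gene was said to have risen or fallen where the adjusted p was below 0.05. Dnm1l, the targeted gene, had 581 to 778 normalised reads in the wild-type libraries and 539 to 949 in those labelled knockout; these totals overlap, so they give no check of the genotype labels, and genotype is used below as labelled. Libraries 1 and 4 of the knockout ethanol group stood apart through RNA of other tissues: the pancreas gene Ctrb1 reached 2563 normalised reads in the first against at most 4.81 elsewhere, the haemoglobin gene Hba-a1 reached 1506 in the other against at most 418, and the fat gene Adipoq was seen only in these libraries (9.84 and 18.3). The liver label held: Alb, the main secreted protein of hepatocytes, ranged from 718685 to 1266040 normalised reads. Because these are bulk livers, fewer cells of a type and less RNA per cell cannot be told apart.

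Cdkn1a encodes p21, an inhibitor of cyclin-dependent kinases, and of the 10 genes it had the largest ratio between its highest and lowest library. The wild-type control libraries held 18.7, 7.95, 20.4 and 13.5 normalised reads, a mean of 15.1 ± 5.63 (SD, n = 4). On ethanol the wild-type libraries held 3567, 3769, 895 and 999, a mean of 2308 ± 1574 (SD, n = 4). The groups were far apart, and within the ethanol group libraries 1 and 2 stood well above libraries 3 and 4, the highest at 4.21 times the lowest. The log2 fold change with ethanol in wild type was 6.93 ± 0.48 (SE; 122-fold, 95% interval 60.6 to 245), with an adjusted p of 7.56e-08 by limma. Only 2 of the 13256 genes tested rose further.

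In the libraries labelled knockout Cdkn1a was higher on the control treatment, and on ethanol its difference from wild type did not pass. Its control libraries held 128, 65.3, 138 and 120 normalised reads (mean 113 ± 32.6, SD, n = 4), and its ethanol libraries 1269, 2345, 605 and 975 (mean 1298 ± 749, SD, n = 4). Every knockout control library lay above every wild-type control library, whereas the ethanol groups of the genotypes overlapped. On the control treatment the genotype difference was 2.84 ± 0.48 on the log2 scale (7.16-fold, 95% interval 3.56 to 14.4, limma adjusted p 0.00100). Ethanol raised Cdkn1a in the knockout by 3.39 ± 0.48 (10.5-fold, 95% interval 5.23 to 21.1, limma adjusted p 0.000187), the 15th largest rise there. On ethanol the genotype difference was -0.69 ± 0.48, with a 95% interval from -1.70 to 0.31, and did not pass (limma adjusted p 0.402). A two-sided exact permutation test over libraries gave 0.0286 for each of the first 3 comparisons, the smallest p that 4 against 4 allows, and 0.286 for the last.

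The ethanol effects themselves differed between genotypes. The effect in the knockout minus that in wild type was -3.53 ± 0.68 on the log2 scale (limma adjusted p 0.0356), and Cdkn1a was the 1 gene of the 10 called in this test, which called 0.204% of all genes tested in that direction and 0.347% in either. This call sat near the threshold: it was lost with the replicate number as a block in all groups (adjusted p 0.0561), kept with that block in the ethanol groups alone (adjusted p 0.00334), and lost in edgeR's quasi-likelihood test (-3.72, adjusted p 0.0546) and without knockout ethanol libraries 1 and 4 (-3.48, limma adjusted p 0.248), while the size moved little. It was also lost when any 1 of 11 of the 16 libraries was left out, with adjusted p values up to 0.0940 and differences from -3.89 to -3.20. With ethanol libraries 3 and 4 alone, the ethanol effect was 5.95 in wild type, against 7.91 with libraries 1 and 2 alone, and it passed in both.

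**Figure D1:**
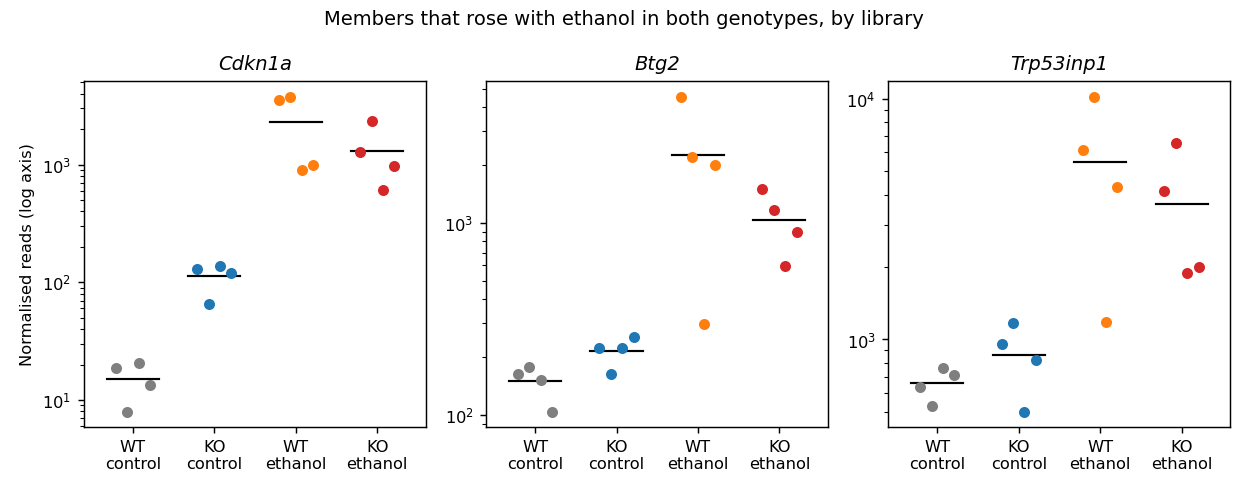
Normalised reads (log axis) of Cdkn1a, Btg2 and Trp53inp1 in each of the 16 libraries by group, with 1 point per library and a bar at the group mean. For Cdkn1a, wild-type control libraries sit between 7.95 and 20.4, knockout control libraries between 65.3 and 138, and the ethanol libraries between 605 and 3769; for all 3 genes both ethanol groups sit above both control groups.

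Btg2, an antiproliferative protein that recruits mRNA deadenylation and is an immediate early gene in many cells, rose with ethanol in both genotypes. The wild-type control libraries held 164, 178, 152 and 104 normalised reads and the wild-type ethanol libraries 4543, 2209, 297 and 1995. Library 3 was by far the lowest of that ethanol group, yet above all controls. The rise was 3.41 ± 0.55 on the log2 scale (10.6-fold, limma adjusted p 0.000168). In the knockout the control libraries held 222, 163, 222 and 253 and the ethanol libraries 1501, 1169, 594 and 893, a rise of 2.21 ± 0.55 (4.61-fold, limma adjusted p 0.010). Genotype differences did not pass on the control treatment (0.53, adjusted p 0.593) or on ethanol (-0.67, adjusted p 0.493), but without wild-type ethanol library 3 the second became -1.47 and passed (limma adjusted p 0.00467). In the knockout the ethanol call was lost without libraries 1 and 4 of its ethanol group (1.97, limma adjusted p 0.103).

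Trp53inp1, whose product promotes p53 phosphorylation, cell death and autophagy, followed the same course with ethanol. Wild-type control libraries held 633, 527, 763 and 713 normalised reads and wild-type ethanol libraries 6119, 10219, 1183 and 4314. The groups did not overlap, and library 3 was again the lowest of the ethanol group. The rise was 2.69 ± 0.51 (6.47-fold, limma adjusted p 0.000606). Knockout control libraries held 957, 1172, 501 and 821 and knockout ethanol libraries 4158, 6537, 1885 and 2010, a rise of 1.95 ± 0.51 (3.86-fold, limma adjusted p 0.0128). Neither genotype difference passed (0.34, adjusted p 0.732, and -0.41, adjusted p 0.679). Without knockout ethanol libraries 1 and 4 the rise in the knockout was 2.09 and no longer passed (limma adjusted p 0.0617).

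Mdm2, the ubiquitin ligase that restrains p53, moved by much less but with little spread. Its wild-type control libraries held 386, 373, 411 and 397 normalised reads and its knockout control libraries 659, 498, 685 and 582. No library of the second group came near the first, and the difference was 0.62 ± 0.11 on the log2 scale (1.54-fold, limma adjusted p 0.00148). Wild-type ethanol libraries held 580, 474, 573 and 565, all above the controls, a rise of 0.48 ± 0.11 (1.40-fold, limma adjusted p 0.00253). Knockout ethanol libraries held 620, 696, 795 and 688, which overlapped with the knockout controls (0.21 ± 0.11, adjusted p 0.181). The genotype groups on ethanol did not overlap, yet their difference of 0.35 ± 0.11 (1.27-fold) missed the threshold (limma adjusted p 0.0520); it passed with the replicate number as a block (adjusted p 0.0379), in edgeR's quasi-likelihood test (adjusted p 0.0346) and in DESeq2 (adjusted p 0.0256). It did not pass with that block in the ethanol groups alone (limma adjusted p 0.0552) or without knockout ethanol libraries 1 and 4 (0.44, adjusted p 0.0918).

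Zmat3, an RNA-binding protein that acts on splicing and mRNA stability downstream of p53, was the 1 gene of the 10 that rose in all 4 comparisons of groups. The wild-type control libraries held 78.9, 87.5, 78.3 and 79.9 normalised reads, and the wild-type ethanol libraries 125, 113, 117 and 108. Knockout control libraries held 118, 109, 128 and 128, and knockout ethanol libraries 154, 159, 186 and 173. Levels in the wild-type ethanol and knockout control groups overlapped, with all wild-type controls below them and all knockout ethanol libraries above. With genotype it rose 1.48-fold on the control treatment (0.57 ± 0.11, limma adjusted p 0.00250) and 1.45-fold on ethanol (0.53 ± 0.11, adjusted p 0.00352). With ethanol it rose 1.42-fold in wild type (0.51 ± 0.11, limma adjusted p 0.00139) and 1.39-fold in the knockout (0.48 ± 0.11, adjusted p 0.00546). The ethanol effects differed by -0.03 ± 0.15 on the log2 scale, with a 95% interval from -0.35 to 0.28, where that of Cdkn1a was -3.53. The call with ethanol in the knockout was lost with the replicate block in the ethanol groups (0.47, limma adjusted p 0.0546). With ethanol libraries 1 and 2 alone that call (0.38, limma adjusted p 0.0809) and the one with genotype on ethanol (0.40, adjusted p 0.158) were both lost.

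Eda2r, a member of the TNF receptor family that binds ectodysplasin A2, rose with genotype on both treatments, and its ethanol effects did not pass. Wild-type control libraries held 8.87, 5.96, 15.9 and 2.08 normalised reads and wild-type ethanol libraries 9.83, 3.5, 11.1 and 6.42. The libraries labelled knockout held 31.1, 23.7, 24.9 and 45.9 on the control treatment and 25.6, 47.0, 39.6 and 43.3 on ethanol. All 8 knockout libraries lay above all 8 wild-type libraries, at 2 to 51 reads per library before normalisation. Eda2r was tested only through its knockout level, so this separation and the genotype p-values that follow describe a gene let in by that level. The difference was 2.02 ± 0.44 on the control treatment (4.05-fold, limma adjusted p 0.00689) and 2.26 ± 0.44 on ethanol (4.78-fold, limma adjusted p 0.00290). Ethanol effects were 0.07 ± 0.44 in wild type (95% interval -0.85 to 1.0) and 0.31 ± 0.44 in the knockout (95% interval -0.61 to 1.24), and neither passed.

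Phlda3, a pleckstrin homology protein that holds back AKT, had no call in the limma fit to all 16 libraries. Its libraries held 8.87, 13.9, 17.0 and 8.30 normalised reads in wild-type controls, 31.9, 31.5, 11.1 and 11 in wild type on ethanol, 33.2, 24.6, 14.7 and 35.1 in knockout controls and 34.4, 32.7, 38.8 and 29.8 in the knockout on ethanol. Wild-type ethanol libraries 1 and 2 lay with the knockout and libraries 3 and 4 with the controls. The genotype difference on the control treatment was 1.08 ± 0.37 (limma adjusted p 0.0648), and it passed without knockout control library 3 (adjusted p 0.0317). It also passed in DESeq2 (1.17, adjusted p 0.0308), but not without knockout ethanol libraries 1 and 4 (limma adjusted p 0.0978). With ethanol libraries 1 and 2 alone, the ethanol effect in wild type passed as well (1.38, limma adjusted p 0.0101).

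Ccng1 encodes cyclin G1, which works with MDM2 on p53, and Bax and Bbc3 (PUMA) encode death-promoting members of the BCL2 family. None of them passed any of the 5 limma tests (at an unadjusted p under 0.05, Ccng1 and Bbc3 would each have passed 1). Ccng1 ranged from 435 to 737 normalised reads over all 16 libraries, with group means from 538 to 646. Its largest difference was 0.28 ± 0.12 with genotype on ethanol (95% interval 0.02 to 0.53, limma adjusted p 0.166). Bax ranged from 148 to 309, with group means from 169 to 220, and its 4 differences lay between -0.12 and 0.24. Bbc3 ranged from 37.2 to 148; its means were 97.4 and 67.5 in wild type without and with ethanol, a difference of -0.66 ± 0.30 (limma adjusted p 0.0979) that passed without wild-type ethanol library 4 (-1.0, adjusted p 0.00634).

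**Figure D2:**
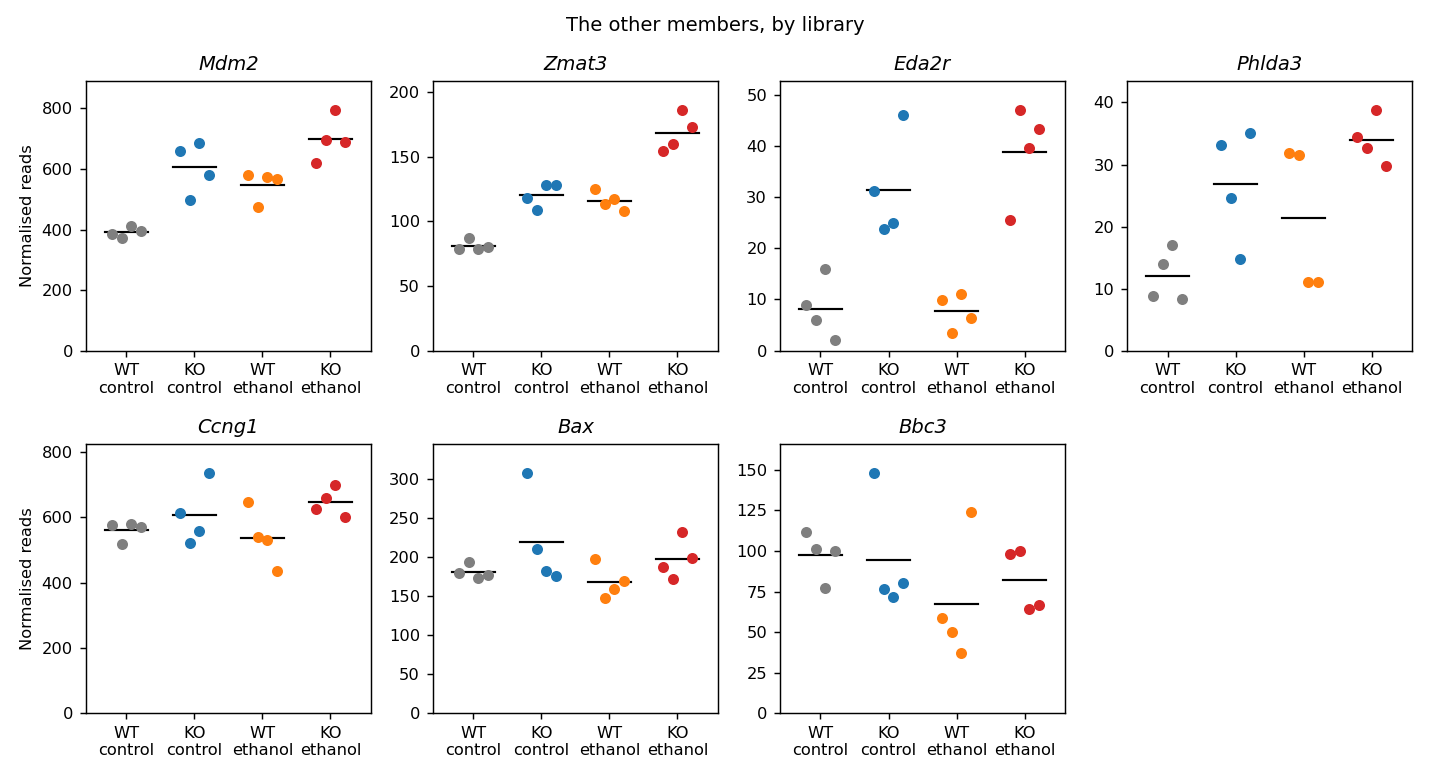
Normalised reads of Mdm2, Zmat3, Eda2r, Phlda3, Ccng1, Bax and Bbc3 in each of the 16 libraries (linear axes from 0), with 1 point per library and a bar at the group mean. Eda2r separates the genotypes, Zmat3 steps up with genotype and with ethanol, and Bax and Bbc3 overlap between all groups; Ccng1 overlaps within each of the 4 comparisons.

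Counted over the 10 genes with limma, 4 rose with genotype on the control treatment (Cdkn1a, Mdm2, Zmat3 and Eda2r), where 6.40% of all genes tested were called higher. On ethanol 2 rose with genotype (Zmat3 and Eda2r), against 6.13% of all genes; in both counts Eda2r was tested only through its knockout level. Ethanol raised 5 in wild type (Cdkn1a, Btg2, Trp53inp1, Mdm2 and Zmat3), against 18.9%, and 4 in the knockout (the same without Mdm2), against 10.2%. None of the 10 was called lower in these 4 comparisons by limma, edgeR or DESeq2 on all 16 libraries (limma called 5.24%, 3.75%, 19.0% and 9.01% of all genes lower). At an unadjusted p under 0.05 only Bbc3 was lower, with ethanol in wild type. With some libraries left out, limma called Btg2 lower with genotype on ethanol and Bbc3 lower with ethanol in wild type. Groups were separate, with every library of the first above every library of the second, for 4, 3, 5 and 4 of the 10 genes, against 8.68%, 8.36%, 17.7% and 11.7% of all genes tested. Both genotype counts of separate groups include Eda2r, under the same limit. The median log2 fold change of the 10 was 0.55, 0.31, 0.49 and 0.35 in that order, beside medians of all genes tested between -0.02 and -0.01. Without knockout ethanol libraries 1 and 4, Cdkn1a (3.44, limma adjusted p 0.00572) and Zmat3 (0.51, adjusted p 0.0403) still passed with ethanol in the knockout. With genotype on ethanol, Zmat3 (0.57, limma adjusted p 0.0349) and, under that limit, Eda2r (2.44, adjusted p 0.0222) still passed. The comparisons share groups, and the genes were chosen with results of these data known, so the counts are a description.

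**Figure D3:**
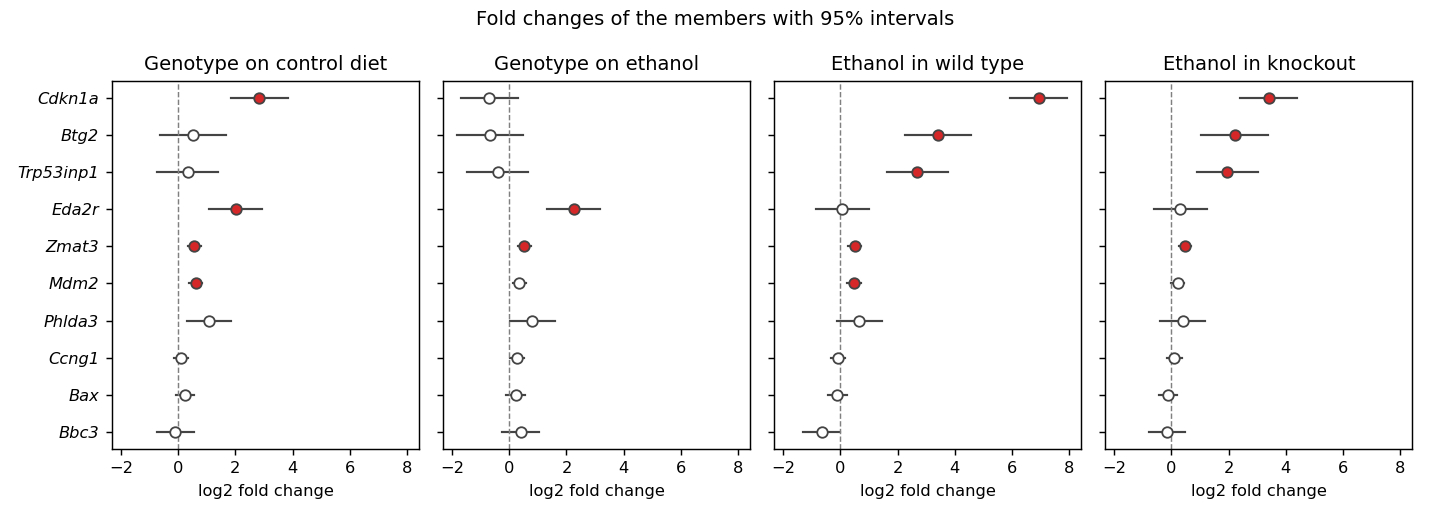
Log2 fold changes of the 10 genes in the 4 comparisons, with 95% intervals from limma; filled points passed at an adjusted p below 0.05. Cdkn1a stands at 2.84, -0.69, 6.93 and 3.39, Eda2r is filled only in the genotype panels, and Zmat3 is filled in all 4.

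To set Cdkn1a beside the other targets within each library, its log2 ratio to each of them was compared between groups. This gave 36 exact permutation tests, adjusted together. Each difference equals the log2 fold change of Cdkn1a minus that of the other gene, so its direction follows from values already given. Cdkn1a had the largest ethanol rise of these genes in both genotypes, so its mean ratios could only rise with ethanol. The p-values below describe spread between libraries and are not separate evidence that Cdkn1a stood apart. With ethanol the ratio rose over all 9 other genes in both genotypes, each at the smallest p that 4 against 4 allows (0.0286, adjusted p 0.0367). In wild type these rises ran from 3.52 over Btg2 and 4.24 over Trp53inp1 to 7.59 over Bbc3. In the knockout they ran from 1.19 over Btg2 and 1.44 over Trp53inp1 to 3.55 over Bbc3. Over Mdm2, the feedback target, the mean log2 ratio went from -4.68 ± 0.53 to 1.77 ± 1.21 in wild type and from -2.46 ± 0.30 to 0.72 ± 0.90 in the knockout (SD, n = 4 each).

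With genotype on the control treatment the Cdkn1a ratio was higher over 8 of the 9 genes, by 1.76 (Phlda3) to 2.94 (Bbc3), each at an exact permutation p of 0.0286 and an adjusted p of 0.0367. Over Eda2r, which itself rose and was tested only through its knockout level, the difference was 0.82 and did not pass (exact permutation p 0.143, adjusted p 0.177). On ethanol the ratio was lower in the knockout over 2 of the 9, by -2.95 over Eda2r, subject to the same limit, and by -1.50 over Phlda3 (exact permutation p 0.0286, adjusted p 0.0367 each). Over Btg2 it differed by -0.02 between means of 0.23 ± 0.54 and 0.25 ± 1.15 (SD, n = 4 each; exact permutation p 1.0). Leaving out 1 library raises the smallest possible p to 0.0571, so no such check can pass. The adjusted p of 0.0367 from these permutation tests rests on many of the 36 ratios, which share Cdkn1a, standing at the smallest p.

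**Figure D4:**
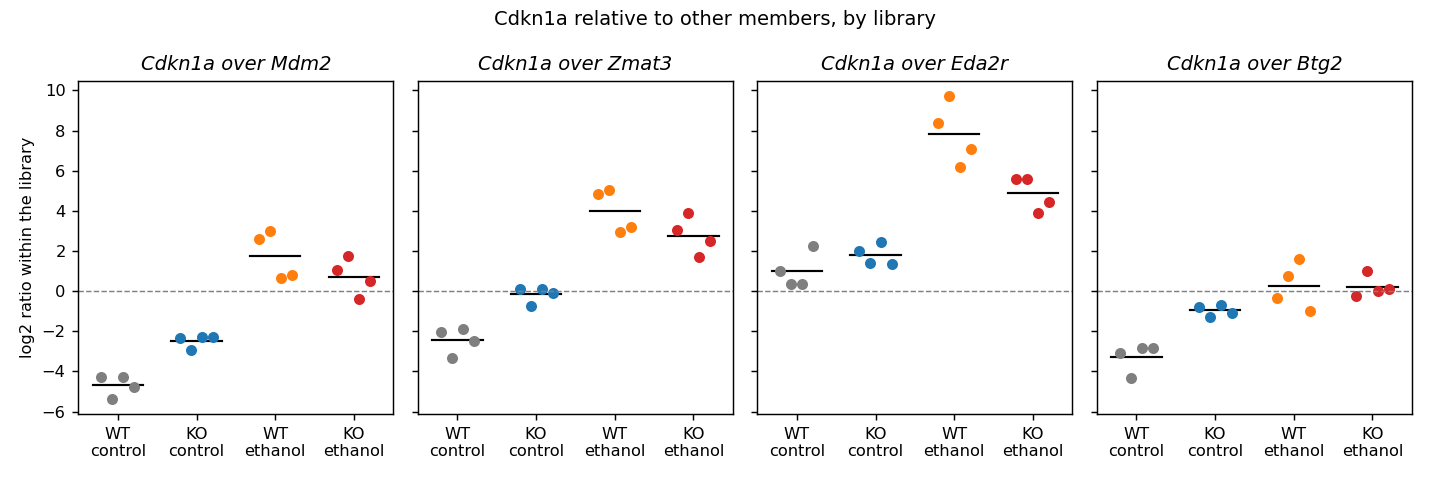
Log2 ratio of Cdkn1a to Mdm2, Zmat3, Eda2r and Btg2 within each library, by group, with 1 point per library and a bar at the group mean. The ratio to Mdm2 goes from a mean of -4.68 in wild-type controls to 1.77 with ethanol, whereas the ratio to Btg2 lies around 0 in both ethanol groups.

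Set per kilobase of exon, the order of levels changed between groups. In wild-type controls Cdkn1a stood at 4.26 ± 1.58 normalised reads per kilobase (SD, n = 4), below 8 of the other genes and above Eda2r at 1.39 ± 0.99, while Ccng1 led at 160 ± 8.09, followed by Bax at 115 ± 5.59. Zmat3 (7.10 ± 0.37) and Phlda3 (7.71 ± 2.68) were neighbours there that did not differ beyond their spread. In wild type on ethanol Trp53inp1 (843 ± 583), Btg2 (824 ± 636) and Cdkn1a (650 ± 443) led and did not differ beyond their spread, with Ccng1 next at 153 ± 24.6. In knockout controls Cdkn1a stood at 31.8 ± 9.18, between Bbc3 at 44.4 ± 17.0 and Phlda3 at 17.3 ± 5.97. In the knockout on ethanol Trp53inp1 (563 ± 338), Btg2 (379 ± 141) and Cdkn1a (365 ± 211) again led.

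Trp53, the gene of p53 itself, had group means from 200 ± 13.8 to 251 ± 22.5 normalised reads (SD, n = 4) and passed in none of the comparisons (log2 differences 0.32 and 0.00 with genotype, 0.22 and -0.11 with ethanol). On the control treatment its knockout libraries (221 to 271) nevertheless all lay above its wild-type libraries (187 to 218). Such separation was seen for 8.68% of all genes tested. Among 12 genes that code for p53 or regulate it, ethanol in wild type lowered 4 and raised 1, where 19.0% of all genes tested were lower and 18.9% higher. Ethanol in the knockout moved 0 of the 12 in limma, 2 at an unadjusted p under 0.05 and 1 each in edgeR and DESeq2. With ethanol in wild type the damage kinases Chek2 and Atm fell by 1.91 ± 0.28 and by 1.41 ± 0.26 on the log2 scale (limma adjusted p 8.11e-05 and 0.000447). The ubiquitin ligase Rchy1 rose there by 0.53 ± 0.13 (limma adjusted p 0.00344). With genotype, Chek2 rose on ethanol (1.28 ± 0.28, limma adjusted p 0.00754) and the deubiquitinase Usp7 fell on the control treatment (-0.27 ± 0.08, adjusted p 0.0469).

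Other p53 targets, 27 tested of 30 listed, went both ways. Ethanol in wild type raised 9 and lowered 6 of the 27, where 18.9% and 19.0% of all genes were called. In the knockout it raised 3 and lowered 3, near the shares of all genes there (10.2% and 9.01%). The stress cytokine Gdf15 rose 13.6-fold in wild type (3.77 ± 0.56, limma adjusted p 8.52e-05) and 4.68-fold in the knockout (2.23 ± 0.56, adjusted p 0.0107). Sesn2, a nutrient-stress protein that restrains mTORC1, rose 4.45-fold in wild type (2.15 ± 0.39, limma adjusted p 0.000427). The ferredoxin reductase gene Fdxr fell with ethanol in the knockout (-0.68 ± 0.11, limma adjusted p 0.000803). It was lower with ethanol in wild type too, at 189 to 249 normalised reads against 322 to 362 in the controls. With genotype 4 rose and 1 fell on the control treatment, against 6.40% and 5.24% of all genes, and 3 rose and 1 fell on ethanol, against 6.13% and 3.75%. Each of these counts of rises includes 1 gene, Pmaip1 and Gtse1 in turn, that was tested only because the knockout libraries lifted its mean over the floor. Without knockout ethanol libraries 1 and 4 these counts on ethanol became 0 and 0 in limma, and those with ethanol in the knockout 0 and 1. The epoxide hydrolase gene Ephx1 rose 1.96-fold with genotype on the control treatment and 2.92-fold with ethanol in wild type, and like Cdkn1a it had a lower ethanol effect in the knockout (-1.37 ± 0.26, limma adjusted p 0.0356). Medians of this list were 0.28, 0.05, 0.22 and 0.09 for genotype on control and on ethanol and for ethanol in wild type and knockout.

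Of the other inhibitors of cyclin-dependent kinases, 4 of 6 were tested, and 0 rose with ethanol in either genotype by limma, edgeR, DESeq2 or an unadjusted p under 0.05. Cdkn2c, which encodes p18, rose with genotype on the control treatment (1.05 ± 0.19, limma adjusted p 0.00186) and on ethanol (0.64 ± 0.19, adjusted p 0.0433). Cdkn2d fell with ethanol in wild type (-1.01 ± 0.30, limma adjusted p 0.0146). Among 8 tested genes of other antiproliferative families, ethanol in wild type raised 4 and lowered 2, against 18.9% and 19.0% of all genes. Gadd45b rose 15.4-fold (3.94 ± 0.49, limma adjusted p 1.75e-05) and Gadd45g 8.22-fold (3.04 ± 0.73, adjusted p 0.00381). In the knockout 1 of the 8 rose with ethanol, Btg1 (0.68 ± 0.20, limma adjusted p 0.0237). The difference between these ethanol effects passed for 0 of the 8 in limma and in edgeR, for 2 in DESeq2 and for 4 at an unadjusted limma p under 0.05.

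Of 13 cyclins, kinases and partners of p21, ethanol lowered 2 in wild type, where 19.0% of all genes were lower, and 4 in the knockout, where 9.01% were (1 of the 13 without knockout ethanol libraries 1 and 4). By limma, edgeR and DESeq2 0 of the 13 rose, and at an unadjusted p under 0.05 1 did, in the knockout. Cdk2, the kinase p21 binds with cyclin E, fell by 1.59 ± 0.22 on the log2 scale in wild type (limma adjusted p 4.99e-05) and by 0.99 ± 0.22 in the knockout (adjusted p 0.00583). On ethanol 5 of the 13 were higher in the knockout, against 6.13% of all genes (1 without its ethanol libraries 1 and 4), among them Ccna2 (3.34-fold, 1.74 ± 0.35, limma adjusted p 0.00366) and Cdk1 (4.82-fold, 2.27 ± 0.60, adjusted p 0.0238). Of 10 proliferation markers 6 were tested; 3 were higher in the knockout on the control treatment and 5 on ethanol (6 without knockout ethanol libraries 1 and 4), against 6.40% and 6.13% of all genes. Ccnb2 and Cdc20 were tested only through their knockout levels; of the 4 others 2 and 3 were higher. Mki67 was 3.23-fold higher on the control treatment (1.69 ± 0.43, limma adjusted p 0.0168) and 4.17-fold higher on ethanol (2.06 ± 0.43, adjusted p 0.00469).

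Among 10 tested BCL2-family genes beside Bax and Bbc3, ethanol in wild type raised 2 and lowered 3, near the shares of all genes (18.9% and 19.0%). Bcl2l11, the death activator BIM, rose 3.52-fold (1.82 ± 0.24, limma adjusted p 3.19e-05) and Bak1, the partner of Bax in the outer mitochondrial membrane, rose 1.56-fold (0.64 ± 0.13, adjusted p 0.00125). Bmf, another gene of the family, fell (-1.46 ± 0.29, limma adjusted p 0.000856) and was also lower in knockout controls than in wild-type controls (-1.81 ± 0.29, adjusted p 0.000578). Ethanol in the knockout moved 0 of the 10 in limma and in edgeR, 1 in DESeq2 and 2 at an unadjusted limma p under 0.05.

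**Figure D5:**
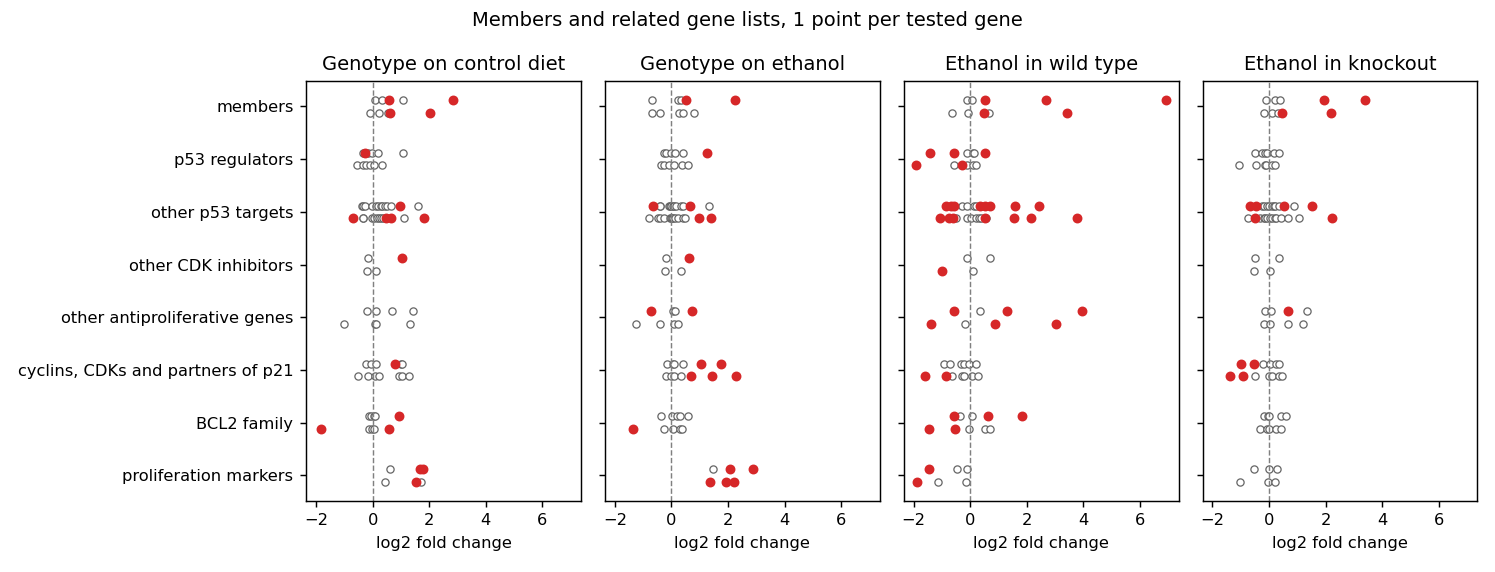
Log2 fold changes of the 10 genes (top row, members) and of 7 related gene lists in the 4 comparisons, 1 point per tested gene; filled points passed at an adjusted p below 0.05. Cdkn1a is the far right point in wild type with ethanol at 6.93, and the 6 tested proliferation markers lie to the right of 0 in both genotype panels.

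Markers of macrophages and monocyte-derived cells moved with genotype on both treatments, as did Zmat3, Eda2r and several proliferation genes. In the limma fit to all 16 libraries, Cdkn1a and Mdm2 were called with genotype on the control treatment only. Summed over 11 Kupffer cell and macrophage markers, none at 0 in all libraries, the level was 2012 to 5335 normalised reads in wild-type controls, 4923 to 6630 in knockout controls, 889 to 1330 in wild type on ethanol and 4060 to 5381 in the knockout on ethanol. With genotype 7 of the 11 rose on the control treatment and 11 of 11 on ethanol, where 6.40% and 6.13% of all genes tested were called higher. With ethanol in wild type 9 of 11 fell, against 19.0% of all genes. Of 6 tested markers of monocyte-derived cells, 4 rose with genotype on the control treatment and 6 on ethanol, but Gpnmb, Trem2 and Ly6c2 were tested only through their knockout levels, and of the 3 others 1 and 3 rose. The 3 tested neutrophil markers had medians of 0.56 and -0.26 with genotype and no call by limma, edgeR or DESeq2, the 1 tested T and NK cell marker, Cd4, had -0.84 and 1.2 and no call by these tools (1 at an unadjusted limma p under 0.05), and no B cell marker was tested. Hepatocyte markers summed to 1324990 to 1412850 normalised reads in knockout controls, below all wild-type controls at 1619450 to 1925690. Of 10 hepatocyte markers 1 fell with genotype there, against 5.24% of all genes. With ethanol in wild type 5 of these 10 rose, against 18.9% of all genes. Of 7 stellate cell markers 3 rose with ethanol in each genotype (0 in the knockout without its ethanol libraries 1 and 4). Of all genes tested, 18.9% were called higher with ethanol in wild type and 10.2% in the knockout. Endothelial markers rose with ethanol, 4 of 7 in each genotype (2 in the knockout without its ethanol libraries 1 and 4), in wild type from a sum of 1250 to 1643 normalised reads to one of 2157 to 2425. Their part in these results was not tested.

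The genes most like Cdkn1a over the 16 libraries, by Pearson correlation of log2 values, were Eppk1 (r 0.967), Ets2 (0.967), Orm3 (0.966), Atp6v0e (0.966) and Grn (0.961). Of these 5, Orm3, an acute-phase orosomucoid, came nearest in size, from 11.7 ± 1.51 to 801 ± 458 normalised reads with ethanol in wild type and from 114 ± 45.4 to 1006 ± 205 in the knockout (SD, n = 4 each). Of the 9 other p53 targets, Btg2 (0.897) and Trp53inp1 (0.881) were the most like Cdkn1a, then Zmat3 (0.723), Mdm2 (0.667), Phlda3 (0.554), Eda2r (0.226) and Ccng1 (0.150). Bax (-0.161) and Bbc3 (-0.415) ran below 0. The points share the 4 groups, so these values describe the group pattern.

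By the GENCODE annotation of GRCm38, Cdkn1a spans chr17:29090976-29100727 on the plus strand, and 273 of its exonic bases are shared with AC167363.2 on the opposite strand. That gene held 0 to 12.8 normalised reads, which is small beside the ethanol levels of Cdkn1a but not beside its wild-type controls at 7.95 to 20.4, and the strand setting of the counting is not known here. Bax shares 192 exonic bases with Gm45808 on the same strand, which had no row.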

How the data were processed

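Liver RNA was sequenced in 16 libraries as single reads of 75 bases, 4 libraries in each of 4 groups. The authors deposited 1 table of 27288 genes in which each value is a normalised signal: a gene's read count over the library's own size factor; HISAT2, HTSeq, edgeR and the GRCm38 build are named per the submitters' processing notes, without strand setting or annotation release. Gene identifiers were matched to symbols for 27233 rows. Dividing each library by its smallest step gave whole reads for 100% of values within 0.01 read, and these recovered reads gave the depths of 11425136 to 13864862 reads.

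Genes with a mean of at least 10 over all libraries (13256) were fitted with limma 3.58.1 (R 4.3.3) on log2 of the value plus a pseudocount of 1, with 4 group means, a mean-variance trend and Benjamini-Hochberg adjustment at 0.05. Fold changes on this scale understate changes of low genes. The script was tested on simulated data. Alternatives were other pseudocounts (0.25 and 4), no filter or a floor of 50, no trend, the compared groups only, TMM factors, leaving out each library, a block for the replicate number, subsets of the ethanol libraries, and counts of recovered reads in edgeR 4.0.16 and DESeq2 1.42.0. In the order genotype on control, genotype on ethanol, ethanol in wild type, ethanol in knockout and difference, edgeR called 1525, 1281, 5013, 2679 and 30 genes and DESeq2 1924, 1704, 5150, 3028 and 270, where limma called 1544, 1310, 5032, 2543 and 46. For genotype on ethanol, deviations from group means correlated between same-numbered libraries (0.115, 0.246, 0.219 and 0.102). The highest correlations with another number were 0.0975, 0.176, 0.199 and 0.179, so the margins were small and library 4 was an exception. In that comparison the block value is given beside a result that it changes.

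The 10 genes and all gene lists were chosen with earlier results of these data known. All 10 are named; of each other list up to 3 called genes with the smallest p in a comparison are named, together with Trp53, and the 5 genes most correlated with Cdkn1a. Promoter windows are from RefSeq (GRCm38.p6) and gene positions from GENCODE.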

Additional observations from a re-analysis of the deposited data

Results flagged for a closer look

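In 3 of 40 groups of 4 libraries examined (10 genes in 4 groups), 1 library lay far from the other 3 by Dixon's criterion; chance alone marks about 1 group in 20. Wild-type ethanol library 2 was low for Mdm2, at 474 normalised reads against 565 to 580 in the others. Wild-type control library 2 was low for Ccng1, at 519 against 571 to 578. Knockout control library 1 was high for Bbc3, at 148 against 71.8 to 80.1.

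For Cdkn1a the ethanol effect differed between genotypes, by -3.53 ± 0.68 on the log2 scale (knockout minus wild type; limma adjusted p 0.0356; 0.000725 to 0.248 over the alternatives).
All 4 libraries of each ethanol group lay above all 4 of its control group, so the direction of the ethanol effect was the same in both genotypes. The difference concerns its size, and several alternatives lost that call. Between genotypes Cdkn1a differed by 2.84 on the control treatment (limma adjusted p 0.00100). On ethanol it differed by -0.69, which did not pass (limma adjusted p 0.402), so the higher knockout controls make up the larger part.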

How the results depend on the processing

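The pseudocounts, TMM factors and the fit to only the compared groups left every count of genes called within 1.5 times (that fit gives no difference of ethanol effects). Over all genes, limma called 1544 for genotype on control (922 to 1691 with 1 library left out, the lowest without wild-type control library 4). For genotype on ethanol it called 1310 (848 to 1685 with 1 left out, 857 without wild-type ethanol library 1 and 848 without knockout ethanol library 3), 496 without knockout ethanol libraries 1 and 4, and 434 with ethanol libraries 3 and 4 alone. Ethanol in wild type called 5032, and 3164 with ethanol libraries 3 and 4 alone. Ethanol in the knockout called 2543, 1003 without its ethanol libraries 1 and 4, 1370 with ethanol libraries 3 and 4 alone, and 1605 with the replicate block in the ethanol groups only, an alternative chosen after seeing the data.

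The difference of the ethanol effects was called for 46 genes: 16 with no trend, 24 with the replicate block, 30 in edgeR, 270 in DESeq2, 264 with ethanol libraries 1 and 2 alone, 0 with libraries 3 and 4 alone, 0 without knockout ethanol libraries 1 and 4, and 8 to 215 with 1 library left out. Of the 10 genes it called 1, against 0 with no trend, the replicate block, edgeR, ethanol libraries 3 and 4 alone or without knockout ethanol libraries 1 and 4, 2 with ethanol libraries 1 and 2 alone, and 0 to 2 with 1 left out. For Cdkn1a that difference lost its call with no trend (-3.53, adjusted p 0.0733), the replicate block (-3.53, 0.0561), edgeR (-3.72, 0.0546), without knockout ethanol libraries 1 and 4 (-3.48, 0.248) and with ethanol libraries 3 and 4 alone (-3.14, 0.0818). With 1 library left out it ran from -3.89 to -3.20, and its call went when any of these was dropped: wild-type control 1, 2 and 4, wild-type ethanol 1 and 2, knockout control 1, 3 and 4, and knockout ethanol 1, 3 and 4; the cause was not tested.

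Of the 10 genes, the 2 called for genotype on ethanol became 1 at a floor of 50, which leaves Eda2r untested, 1 with ethanol libraries 1 and 2 alone (Btg2, lower, -1.26, adjusted p 0.0285) and 1 with libraries 3 and 4 alone. The 4 called for ethanol in the knockout became 2 without its ethanol libraries 1 and 4 and 2 with libraries 3 and 4 alone, as Btg2 and Trp53inp1 missed the threshold. Leaving out any 1 library lost no call of the 10 genes in the 4 comparisons of 2 groups. Beside the Cdkn1a difference, the replicate block in all groups changed 1 call of the 10 genes, Mdm2 for genotype on ethanol (0.35, adjusted p 0.0379), and the block in the ethanol groups alone changed 1, Zmat3 for ethanol in the knockout (0.47, adjusted p 0.0546). Elsewhere replicate numbers did not pair libraries. Exact permutation tests cannot pass with 1 library left out. Eda2r and Phlda3, at 2 to 51 reads a library, are limited by depth.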
